A study of Mus musculus with 6 samples.

Results

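The 46 genes described here encode parts of the lysosome and of the autophagy machinery. The lysosomal ones are 8 cathepsins and a group of 7 made up of hydrolases and their saposin activator. Also included are 5 membrane, sterol transport and channel proteins and 7 proton pump subunits. The others are 2 transcription factors, 8 proteins of autophagy initiation, 7 of the conjugation systems and 2 cargo receptors. All 46 genes were chosen by name and found among the 46963 gene names of the count table. RNA-seq was done on splenic B-cells depleted of CD43+ cells from mice of 3 genotypes (wt, Eμ-deficient, 3′RR-deficient), in resting cells (NS) and in cells stimulated with lipopolysaccharide (LPS, a bacterial outer membrane component that activates B-cells) at 5 μg per ml for 2 days (S). Eμ and the 3′ regulatory region (3′RR) are the enhancer regions at either end of the immunoglobulin heavy chain constant gene cluster, and the Eμ-deficient mice lack Eμ with its matrix attachment regions (EμMAR). All 3 genotypes had a 129 background, and the mice, male and female, were 8 to 12 weeks old. There was 1 library per genotype and state, 6 in all, each from 2 pooled mice per the labels, whereas the methods give 4 mice and 2 pools per genotype. The labels describe the resting cells as kept in medium for 2 days and the methods describe them as taken before stimulation, so that LPS and culture cannot be told apart. The LPS dose is that of the stimulation label and the methods, and the protocol text of the labels gives 5 mg per ml.

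Lysosomes are acidic compartments in which cathepsins cut proteins and other hydrolases break down glycans and lipids, and a proton pump, the V-ATPase, keeps them acidic. In macroautophagy a kinase complex around Ulk1 starts a double membrane, 2 ubiquitin-like conjugation systems attach Map1lc3b and its relatives to that membrane, and receptors such as Sqstm1 carry cargo into it. Tfeb and Tfe3 are transcription factors that activate many lysosomal genes through an E-box with the core CACGTG. In B-cells the same compartments degrade internalised antigen and the invariant chain of MHC class II, in which Ctss has a central part, and autophagy is known to sustain plasma cells and memory B-cells.

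Genes received between 9111974 and 21998587 counts per library, and every member had at least 15 counts in every library. The 9 B-cell markers summed to between 1885 and 3842 CPM (read counts relative to library size, which was scaled by the trimmed mean of M-values, TMM) in each library, with none at 0. The log2 ratios of 35 spike-in RNAs between 2 libraries had an SD of between 0.135 and 1.27 in the 7 pairs compared, and the largest was that of the stimulated 3′RR-deficient library over the stimulated wt library. In that pair the median log2 ratio ran from -0.82 in the genes of lowest GC content to 0.72 in those of highest GC content (10 bins). It ran the other way, from 0.44 to -0.68, in stimulated over resting wt cells. In resting Eμ-deficient over wt cells it ran from 0.44 to -0.415, and in stimulated over resting 3′RR-deficient cells from -0.50 to 0.06. In the remaining pairs both medians lay between -0.23 and 0.17. Macrophage markers were also higher in the resting than in the stimulated libraries: 17 macrophage and monocyte markers summed to 240 CPM (wt), 802 CPM (Eμ-deficient) and 309 CPM (3′RR-deficient) in resting cells, and to 24.2, 43.4 and 34.8 CPM after LPS.

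Before the values, the sequences that carry the E-box are shown, because they place the member with the largest fall and the member that rose side by side. In RefSeq promoter windows of build GRCm38.p6 (250 bases before to 50 after each start site), 37 of the 46 members were matched. The extended E-box TCACGTGA, which holds CACGTG and, like it, reads the same on both strands, was in the windows of 7 of these 37 genes (Ctsa, Ctsd, Gla, Mcoln1, Atp6v0d1, Atp6v0e and Atp6v1a), against 1.12% of 27025 genes with a window. The core CACGTG was in 12 of the 37, against 8.09% of all genes. Of the 7 genes with the extended motif, 5 were called lower after LPS, 1 higher (Atp6v1a), and Atp6v0e was not called. Of all 46 members 24 were called lower and 1 higher, and of all genes tested 21.1% and 19.7%. A link between motif and fall was not tested. For Gla, 120 bases are given (chrX:134601136-134601255, minus strand), in which TCACGTGA, in capitals, starts at positions -228 and -195, counted from the RefSeq start site as 0.
Gla: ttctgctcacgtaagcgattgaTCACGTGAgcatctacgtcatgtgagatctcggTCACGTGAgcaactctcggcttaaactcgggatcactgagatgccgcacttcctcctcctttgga
For the other 6 genes 30 bases around the motif are given, with 1 copy in capitals. It starts at position -132 in Atp6v1a (chr16:44139373-44139402, minus strand), -13 in Ctsa (chr2:164833749-164833778, plus strand), -99 in Ctsd (chr7:142387908-142387937, minus strand), -46 in Mcoln1 (chr8:3500462-3500491, plus strand), -4 in Atp6v0d1 (chr8:105566050-105566079, minus strand) and 2 in Atp6v0e (chr17:26676387-26676416, plus strand).
Atp6v1a: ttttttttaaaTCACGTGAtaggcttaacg
Ctsa: tgagcaaactgTCACGTGAtgcagatgctc
Ctsd: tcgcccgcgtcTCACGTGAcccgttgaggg
Mcoln1: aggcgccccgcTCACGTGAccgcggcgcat
Atp6v0d1: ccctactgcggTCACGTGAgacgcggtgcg
Atp6v0e: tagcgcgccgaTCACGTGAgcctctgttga
A match is a string of letters in a window and was not tested as a binding site. Gla and Ctsa hold 2 copies each, and Ctsd and Mcoln1 hold a second CACGTG outside the extended motif.

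From resting to LPS-stimulated cells, 24 of the 46 genes fell, 1 rose and 21 were not called. The test was edgeR's quasi-likelihood test with genotype and state as additive terms and Benjamini-Hochberg adjustment over 14600 genes, in which the 3 genotypes serve as the repeats of the LPS step. Over all genes tested, 21.1% were called lower and 19.7% higher. The median log2 fold change of the members was -0.76, against -0.07 over all genes. In 29 members all 3 stimulated libraries lay below all 3 resting libraries (27.3% of all genes), and in 3, Gusb, Atp6v1a and Atg5, all lay above (25.0% of all genes). Within each genotype, 31 members were lower after LPS in all 3 pairs of libraries, 6 were higher in all 3 and 9 had unlike signs. The shares of all genes with such signs were not computed, so these 3 counts have no background beside them. The residual of the fit is the departure of the 3 LPS steps from each other and not the spread between mice.

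Without the stimulated 3′RR-deficient library, 18 members were called lower and 1 higher, and without both Eμ-deficient libraries 13 were called lower and 1 higher. Calls over all genes dropped as well, to 17.9% lower and 15.8% higher in the first case and to 13.1% and 15.0% in the second. In every one of 12 alternative settings the calls held for Ctsa, Ctsb, Ctsl, Gla, Hexa, Neu1, Psap, Atp6v0d1, Atp6v1h, Ulk1, Ulk2, Map1lc3b and Sqstm1 among the falls and for Atp6v1a. The other 11 falls, of Ctsc, Ctsd, Ctsh, Ctss, Lipa, Gaa, Npc1, Mcoln1, Rb1cc1, Atg16l1 and Nbr1, were each lost without the Eμ-deficient pair and some of them elsewhere as well.

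**Figure D1:**
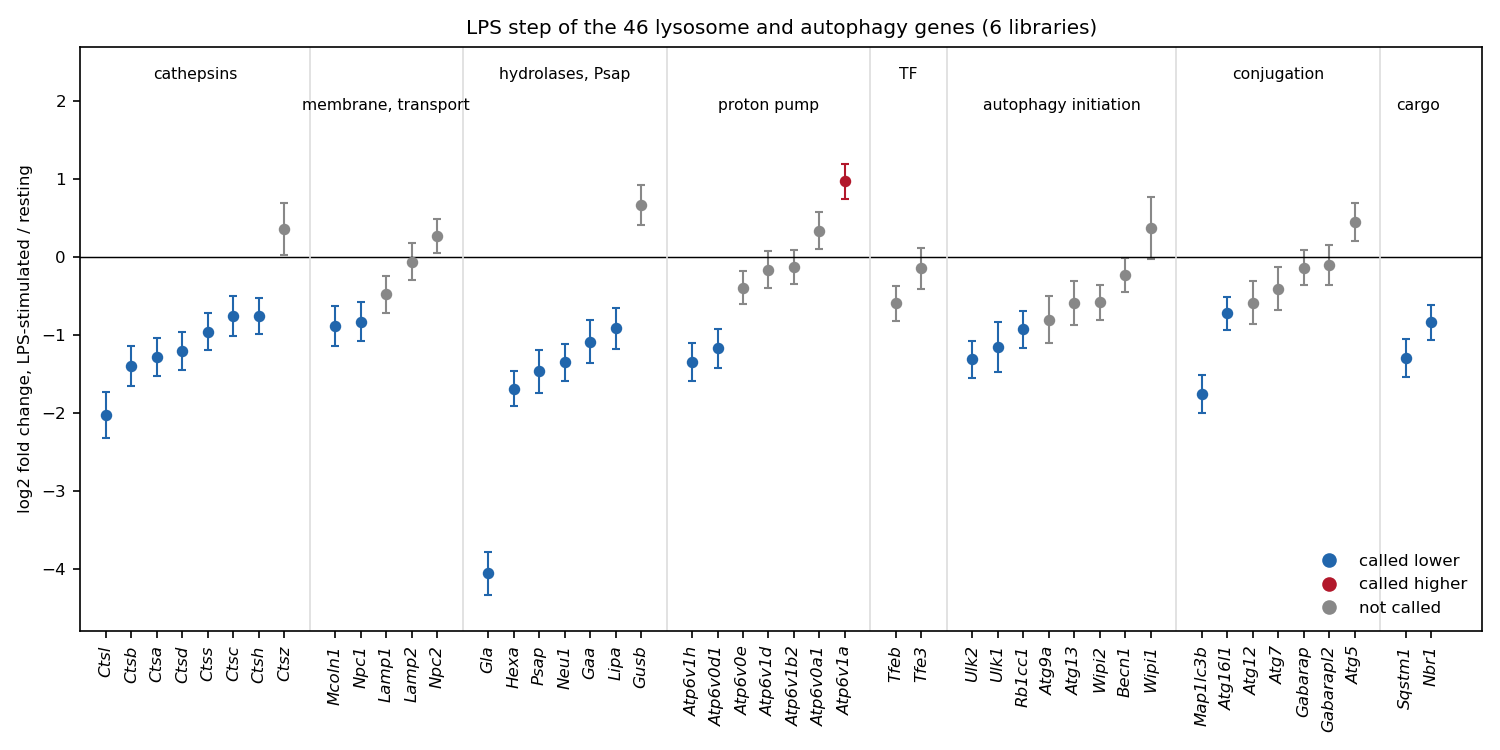
Log2 fold change (LPS-stimulated over resting, vertical axis) of each of the 46 genes, by role and then by size, from the edgeR fit to 6 libraries. Points are estimates and bars are ± 1 standard error; blue genes were called lower (24), the red gene higher (1) and grey genes were not called (21); TF stands for transcription factors. Gla lies lowest at -4.06 and Atp6v1a highest at 0.97.

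Cathepsins, the proteases of the lysosome, fell in 7 of 8 cases (21.1% of all genes), with a median log2 fold change of -1.08. Ctsl, an endopeptidase, was at 8.20 (wt), 16.7 (Eμ-deficient) and 7.92 CPM (3′RR-deficient) in resting cells and at 1.72, 4.78 and 1.91 CPM after LPS. All resting values lay above all stimulated values, and the fall was by 2.03 ± 0.29 (SE) on the log2 scale (adjusted p = 0.0009). Ctsb, a protease of broad specificity, went from 98.1, 199 and 107 CPM to 31.6, 63.1 and 57.5 CPM, a log2 fold change of -1.40 ± 0.26 (adjusted p = 0.0028). Its highest value in either state was that of the Eμ-deficient library. Ctsa, a carboxypeptidase that also shields Neu1 and β-galactosidase, went from 72.3, 62.0 and 77.9 CPM to 21.4, 27.3 and 41.5 CPM (log2 fold change -1.29 ± 0.25, adjusted p = 0.0036). Ctsd, an aspartic protease, went from 49.9, 102.5 and 62.2 CPM to 17.1, 41.7 and 36.6 CPM (log2 fold change -1.20 ± 0.24, adjusted p = 0.00443). The states did not overlap in either of them. Ctss, the cathepsin of invariant chain processing, was the most abundant of the 8 per kilobase of exon in the 3 resting libraries, at 123, 147 and 131 CPM per kb, and at 69.5, 80.4 and 57.8 CPM per kb after LPS. Its log2 fold change was -0.96 ± 0.24 (adjusted p = 0.0115), that of Ctsc, which activates granule proteases, was -0.76 ± 0.26 (adjusted p = 0.0406), and that of Ctsh, an aminopeptidase, was -0.76 ± 0.23 (adjusted p = 0.0287). In CPM, Ctss went from 167, 199.9 and 178 to 94.3, 109 and 78.5, Ctsc from 136.9, 233 and 137.4 to 109.4, 108 and 76.3, and Ctsh from 127, 106 and 116 to 61.8, 74.2 and 70.4. None of the 3 overlapped between states, and the step of Ctsc was smallest in wt (log2 ratio -0.32, against -1.11 and -0.85).

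Ctsz, a carboxypeptidase, was the cathepsin that was not called (log2 fold change 0.36 ± 0.34, adjusted p = 0.419). Resting cells had 129, 106 and 116 CPM and stimulated cells 82.6, 174 and 229.7 CPM. The wt pair went down and both mutant pairs went up. The log2 ratios of stimulated over resting cells were -0.64 in wt (95% counting interval -0.73 to -0.55), 0.71 in Eμ-deficient (0.61 to 0.81) and 0.98 in 3′RR-deficient cells (0.90 to 1.07), and with the GC trend removed they were -0.03, 0.68 and 0.85. No replicate of a genotype stands behind this difference.

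Macrophages are rich in cathepsins, and the macrophage markers moved with these falls. Their summed level ranged from 240 to 802 CPM over the resting libraries and from 24.2 to 43.4 CPM over the stimulated ones. In the stimulated wt library, 9 of 17 were at 0, C1qa, C1qb, C1qc and Mertk among them. Erythroid markers ranged from 3376 to 20380 CPM at rest and from 52.9 to 672 CPM after LPS, and the neutrophil, dendritic and T and NK cell lists also had all 3 stimulated sums below all 3 resting sums. So did the 9 B-cell markers, from 2919 to 3842 CPM at rest and from 1885 to 2212 CPM after LPS. The plasma cell sums overlapped between states, but Prdm1 and Xbp1 of that list were higher in all stimulated libraries. Prdm1 went from 9.63, 20.3 and 5.69 CPM to 71.5, 101 and 88.1 CPM. Xbp1 went from 43.3, 91.3 and 44.7 CPM to 140.9, 297 and 203 CPM. Jchain, Irf4, Sdc1 and Tnfrsf17 overlapped between states. The part of these cell types in the falls was not tested. In bulk RNA, fewer cells of a type and less RNA per cell cannot be told apart.

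The group of glycan and lipid hydrolases with the saposin precursor Psap fell in 6 of 7 cases (21.1% of all genes), with a median of -1.35. It held the largest change of all members. Gla, α-galactosidase A, which removes terminal galactose from globotriaosylceramide, was at 54.3, 102 and 85.4 CPM in resting wt, Eμ-deficient and 3′RR-deficient cells and at 4.49, 4.78 and 4.61 CPM after LPS. The 3 stimulated levels were close together, and the fitted fold change was 16.7 (log2 fold change -4.06 ± 0.28, adjusted p = 6.65e-05). By pair the fall was 12.1-fold in wt, 21.4-fold in Eμ-deficient and 18.5-fold in 3′RR-deficient cells, and the counting intervals of the wt and Eμ-deficient log2 ratios (-3.92 to -3.29 and -4.85 to -4.01) did not overlap, with no replicate check. The gene lies at chrX:134588149-134601125 on the minus strand in the GENCODE M21 annotation of GRCm38, with no same-strand gene over its exons.

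Hexa, the α subunit of β-hexosaminidase, which degrades GM2 ganglioside, went from 44.6, 64.8 and 48.5 CPM to 15.8, 18.0 and 14.7 CPM (log2 fold change -1.69 ± 0.23, adjusted p = 0.000597). Psap, the precursor of the saposins that present sphingolipids to their hydrolases, was the most abundant member per kilobase of exon in the resting libraries, at 171.5, 200.2 and 159 CPM per kb. It went from 471, 549 and 437 CPM to 138, 184 and 212 CPM (log2 fold change -1.47 ± 0.27, adjusted p = 0.00311). Neu1, the lysosomal sialidase, went from 43.0, 32.1 and 49.4 CPM to 13.1, 14.1 and 22.4 CPM (log2 fold change -1.35 ± 0.24, adjusted p = 0.0023). In these 3 genes too the states did not overlap.

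Gaa, the acid α-glucosidase that degrades glycogen, went from 39.9, 36.6 and 35.1 CPM to 13.0, 15.8 and 26.2 CPM (log2 fold change -1.08 ± 0.28, adjusted p = 0.0132). Lipa, the lysosomal acid lipase, went from 13.9, 23.9 and 16.3 CPM to 9.13, 8.99 and 9.77 CPM (log2 fold change -0.92 ± 0.27, adjusted p = 0.0229). Their smallest steps were in different pairs, 3′RR-deficient for Gaa and wt for Lipa. Gusb, β-glucuronidase, was not called. It had 22.6, 22.0 and 20.6 CPM at rest and 27.4, 31.0 and 48.5 CPM after LPS, and all 3 stimulated values lay above the resting ones (log2 fold change 0.67 ± 0.26, adjusted p = 0.0645).

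**Figure D2:**
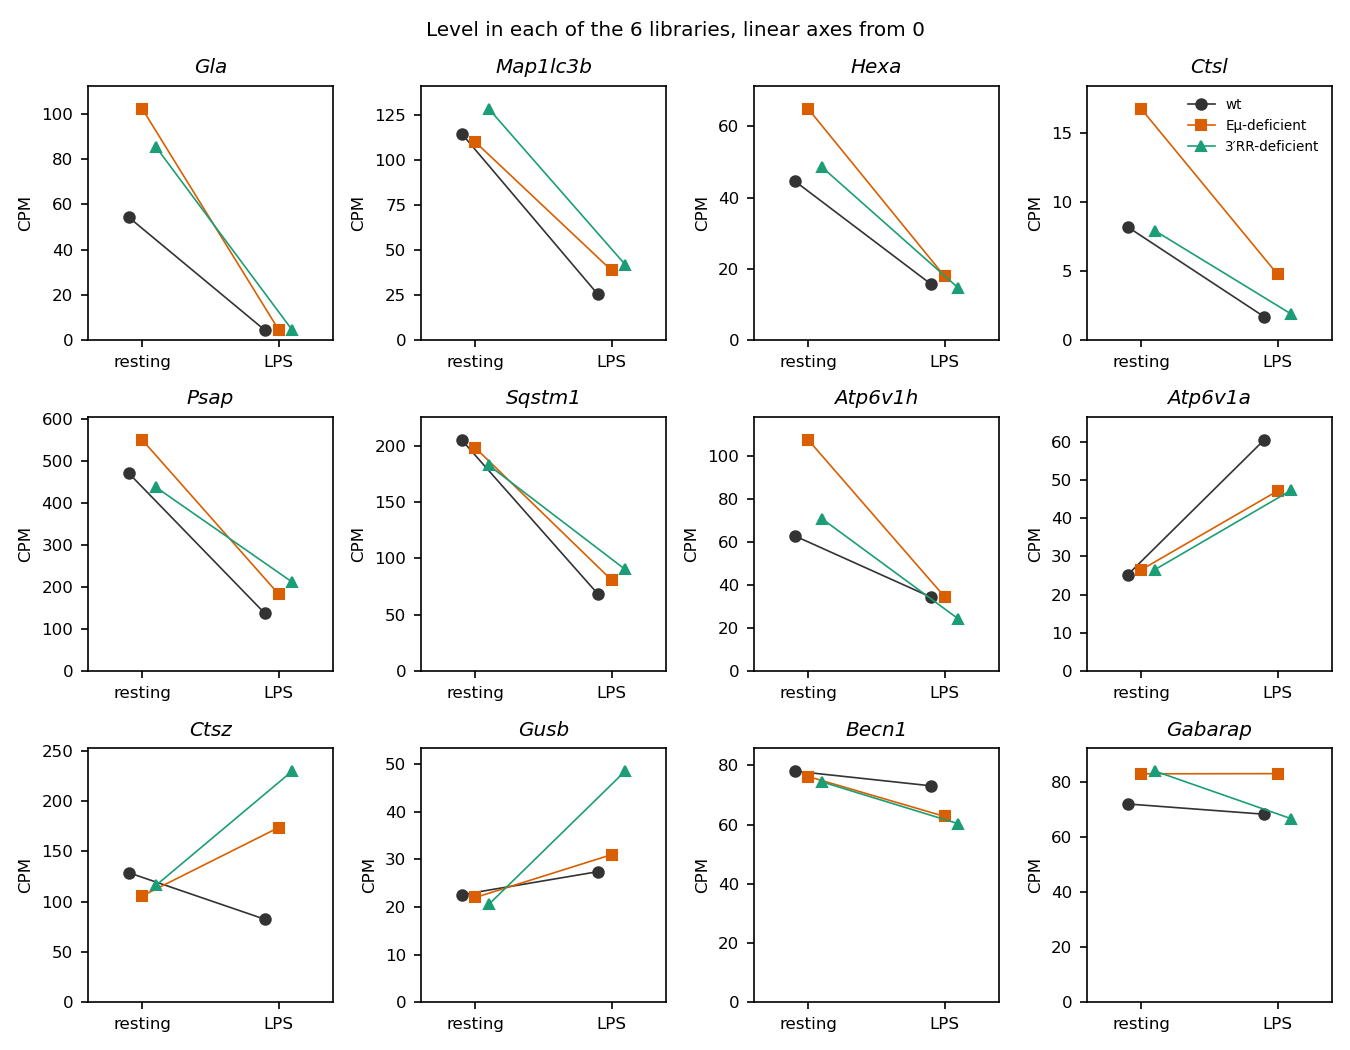
CPM (vertical axes, linear from 0) of 12 genes in each of the 6 libraries, with lines joining the resting and the LPS-stimulated library of a genotype. In the first 7 panels all stimulated libraries lie below all resting libraries, in the Atp6v1a and Gusb panels all lie above, and in the Ctsz panel the wt pair goes down while both mutant pairs go up.

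Of the 5 membrane, sterol transport and channel genes, 2 fell (21.1% of all genes were called lower). Mcoln1, the calcium channel of the lysosomal membrane, went from 14.4, 15.0 and 20.8 CPM to 6.41, 10.5 and 10.7 CPM (log2 fold change -0.88 ± 0.26, adjusted p = 0.0233). Npc1, which moves cholesterol out of the lysosome, went from 28.9, 30.4 and 22.8 CPM to 11.95, 17.7 and 17.0 CPM (log2 fold change -0.83 ± 0.25, adjusted p = 0.0268). Its soluble partner Npc2 was not called, with 44.5, 62.7 and 49.6 CPM at rest and 46.1, 83.0 and 63.8 CPM after LPS (log2 fold change 0.27 ± 0.22, adjusted p = 0.345). The values of Npc2 overlapped between states. The membrane glycoproteins were not called either. Lamp1 had a log2 fold change of -0.47 ± 0.24 (adjusted p = 0.139), and Lamp2, at 36.9, 54.4 and 48.1 CPM at rest and 43.0, 57.2 and 34.7 CPM after LPS, one of -0.06 ± 0.23 (adjusted p = 0.862). Lamp2 was higher after LPS in the wt and Eμ-deficient pairs and lower in the 3′RR-deficient pair.

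Proton pump subunits went different ways. Atp6v1a, the catalytic A subunit of the V1 sector, was the member that rose, from 25.3, 26.6 and 26.6 CPM to 60.4, 47.1 and 47.3 CPM, a fold change of 1.96 (log2 fold change 0.97 ± 0.23, adjusted p = 0.00843). The 3 resting values were close together and far below the stimulated ones. Atp6v1h, the regulatory H subunit of the same sector, went from 63.0, 107.6 and 71.0 CPM to 34.6, 34.8 and 24.5 CPM (log2 fold change -1.34 ± 0.25, adjusted p = 0.00285). Atp6v0d1, a subunit of the stalk on the membrane sector, went from 45.2, 32.4 and 38.3 CPM to 14.3, 17.4 and 19.8 CPM (log2 fold change -1.17 ± 0.25, adjusted p = 0.00576). Per kilobase of exon, Atp6v1h was above Atp6v1a in every resting library (6.47, 11.04 and 7.29 against 4.18, 4.39 and 4.40 CPM per kb) and below it in every stimulated library (3.55, 3.57 and 2.51 against 9.99, 7.80 and 7.82 CPM per kb).

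The other 4 pump subunits were not called, with log2 fold changes from -0.39 (Atp6v0e) to 0.34 (Atp6v0a1). Atp6v1b2, the B subunit that forms the catalytic ring with Atp6v1a, had 39.4, 34.6 and 43.2 CPM at rest and 35.1, 35.5 and 36.3 CPM after LPS (log2 fold change -0.13 ± 0.22, adjusted p = 0.661). Atp6v1d, of the central rotor, had 21.2, 27.9 and 26.8 CPM at rest and 24.1, 24.8 and 18.8 CPM after LPS (log2 fold change -0.16 ± 0.24, adjusted p = 0.609). Both overlapped between states, and in both the sign of the step differed between genotypes.

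Neither transcription factor was called. Tfeb had 64.4, 49.2 and 61.7 CPM at rest and 36.1, 31.3 and 50.3 CPM after LPS, and was lower after LPS in each of the 3 pairs (log2 fold change -0.59 ± 0.23, adjusted p = 0.0615). The stimulated 3′RR-deficient value exceeded the resting Eμ-deficient one, so the states overlapped. Tfe3 had 18.2, 17.0 and 18.5 CPM at rest and 12.9, 13.4 and 24.6 CPM after LPS (log2 fold change -0.14 ± 0.26, adjusted p = 0.691). It was lower after LPS in wt and Eμ-deficient cells and higher in 3′RR-deficient cells.

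Autophagy initiation genes fell in 3 of 8 cases (37.5%, against 21.1% of all genes called lower), and these 3 belong to the kinase complex. Ulk2, one of its 2 kinases, went from 29.9, 24.2 and 27.6 CPM to 11.2, 11.4 and 10.2 CPM (log2 fold change -1.31 ± 0.24, adjusted p = 0.00251). Ulk1, the other, went from 30.9, 16.7 and 21.5 CPM to 7.60, 9.55 and 14.0 CPM (log2 fold change -1.15 ± 0.32, adjusted p = 0.0182), with its largest step in the wt pair (log2 ratio -2.02, against -0.81 and -0.62). Rb1cc1, the scaffold known as FIP200, went from 61.2, 69.5 and 57.2 CPM to 39.8, 39.2 and 22.4 CPM (log2 fold change -0.93 ± 0.24, adjusted p = 0.0133). Atg13, the adaptor of the same complex, was not called. It had 23.9, 17.9 and 19.8 CPM at rest and 11.2, 18.6 and 12.02 CPM after LPS (log2 fold change -0.59 ± 0.28, adjusted p = 0.123), and only the Eμ-deficient pair showed no decrease (log2 ratio 0.06).

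Becn1, a subunit of the lipid kinase complex that acts next, was not called, at 78.1, 76.2 and 74.4 CPM at rest and 73.1, 62.8 and 60.3 CPM after LPS (log2 fold change -0.23 ± 0.22, adjusted p = 0.43). All 3 stimulated values lay below the resting ones. Atg9a, the membrane protein of the seed vesicles, had a log2 fold change of -0.80 ± 0.30 (adjusted p = 0.0605), and exons of Gm29253, a gene model that the count table also holds, cover 31.8% of its exon length on the same strand, so its reads may be shared. Wipi2 and Wipi1 bind the lipid that the kinase complex makes. Wipi2 had a log2 fold change of -0.58 ± 0.23 (adjusted p = 0.065). Wipi1 was the least abundant member, at 0.99, 3.33 and 1.02 CPM at rest and 1.29, 3.56 and 1.69 CPM after LPS, from 15 to 44 counts (log2 fold change 0.38 ± 0.39, adjusted p = 0.468). In both states its highest value was that of the Eμ-deficient library.

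In the conjugation group 2 of 7 genes fell (28.6%, against 21.1% of all genes called lower). Map1lc3b, LC3B, the protein that is attached to the autophagosome membrane, went from 115, 110.1 and 128 CPM to 25.5, 38.9 and 42.1 CPM (log2 fold change -1.76 ± 0.25, adjusted p = 0.000734). Its 2 relatives in the set were not called. Gabarap had 72.1, 83.0 and 84.0 CPM at rest and 68.4, 83.1 and 66.7 CPM after LPS (log2 fold change -0.14 ± 0.22, adjusted p = 0.649), and Gabarapl2 had 27.9, 51.2 and 32.2 CPM at rest and 39.0, 37.4 and 25.6 CPM after LPS (log2 fold change -0.10 ± 0.26, adjusted p = 0.779). Per kilobase of exon, Gabarap stood above Map1lc3b in all 6 libraries, at 39.1, 45.0 and 45.6 against 15.3, 14.7 and 17.1 CPM per kb at rest and 37.1, 45.1 and 36.2 against 3.40, 5.17 and 5.60 CPM per kb after LPS.

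Atg16l1, which places the conjugation enzyme on the membrane, went from 59.2, 51.0 and 67.0 CPM to 34.1, 31.1 and 42.6 CPM (log2 fold change -0.72 ± 0.21, adjusted p = 0.0246). Its binding partners were not called. Atg5 had 13.1, 13.2 and 11.8 CPM at rest and 21.6, 17.7 and 13.5 CPM after LPS, with the states just apart (log2 fold change 0.45 ± 0.24, adjusted p = 0.166), and Atg12 had a log2 fold change of -0.58 ± 0.28 (adjusted p = 0.122). Atg7, the E1-like enzyme of both systems, had 18.2, 13.7 and 15.9 CPM at rest and 9.56, 10.8 and 16.6 CPM after LPS (log2 fold change -0.40 ± 0.27, adjusted p = 0.261). It was lower after LPS in the wt and Eμ-deficient pairs and slightly higher in the 3′RR-deficient pair (log2 ratio 0.06).

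Both cargo receptors fell (21.1% of all genes). Sqstm1, p62, which links ubiquitinated cargo to Map1lc3b, went from 205, 198 and 182 CPM to 68.5, 80.9 and 90.3 CPM (log2 fold change -1.30 ± 0.25, adjusted p = 0.00337). Nbr1, a receptor of related build, went from 60.8, 67.0 and 66.5 CPM to 31.5, 43.5 and 34.6 CPM (log2 fold change -0.84 ± 0.22, adjusted p = 0.0145). All 3 stimulated libraries lay below all 3 resting libraries in both genes.

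A list of 104 other lysosome and autophagy genes, all tested, had 46 called lower and 2 higher, with a median log2 fold change of -0.70, against 21.1% of all genes called lower and 19.7% higher. Without the Eμ-deficient pair 24 of 102 were called lower (13.1% of all genes), and without the wt pair 5 of 104 were called higher (24.7% of all genes). Its largest falls were those of Ctsf, Pik3r4, Acp5, Rragd and Map1lc3a. Ctsf, cathepsin F, had 9, 28 and 22 counts at rest and 0, 2 and 0 counts after LPS, and no fold is given at these counts. Pik3r4, the regulatory subunit of the lipid kinase complex that also holds Becn1, went from 187, 331 and 158 CPM to 20.2, 26.6 and 32.4 CPM (log2 fold change -3.05 ± 0.32, adjusted p = 0.000213). Becn1 itself was not called. Acp5, the tartrate-resistant acid phosphatase, had a log2 fold change of -2.82 ± 0.34 (adjusted p = 0.000398), Rragd, a Rag GTPase that recruits mTORC1 to lysosomes, one of -2.68 ± 0.51 (adjusted p = 0.00336) and Map1lc3a, LC3A, one of -2.63 ± 0.33 (adjusted p = 0.000456). Rragd had 65, 66 and 75 counts at rest and 14, 13 and 1 after LPS, so the size of its fall is imprecise. The 2 genes that rose were Lamtor5 and Optn. Lamtor5, a subunit of the Ragulator complex that anchors Rag GTPases, had a log2 fold change of 0.96 ± 0.25 (adjusted p = 0.0151) and Optn, the cargo receptor optineurin, one of 0.81 ± 0.24 (adjusted p = 0.0247).

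Taken within a genotype, the LPS step had a median log2 ratio over the 46 members of -0.88 in wt, -0.64 in Eμ-deficient and -0.64 in 3′RR-deficient cells, against -0.08, 0.00 and -0.09 over all genes. Members lower by 2-fold or more numbered 19 in wt (25.4% of all genes), 15 in Eμ-deficient (19.9%) and 12 in 3′RR-deficient cells (21.0%). In all 3 genotypes 8 were so: Ctsl, Gla, Hexa, Neu1, Psap, Ulk2, Map1lc3b and Sqstm1. The share of all genes lower by this size in all 3 genotypes was not computed, so the 8 have no background beside them. Higher by 2-fold or more were 0 members in the Eμ-deficient pair (17.0% of all genes), 1 in the wt pair, Atp6v1a (log2 ratio 1.26; 21.4%), and 1 in the 3′RR-deficient pair, Gusb (1.24; 18.6%). Whether the steps differ between genotypes was not tested, since each rests on 1 library per state.

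**Figure D3:**
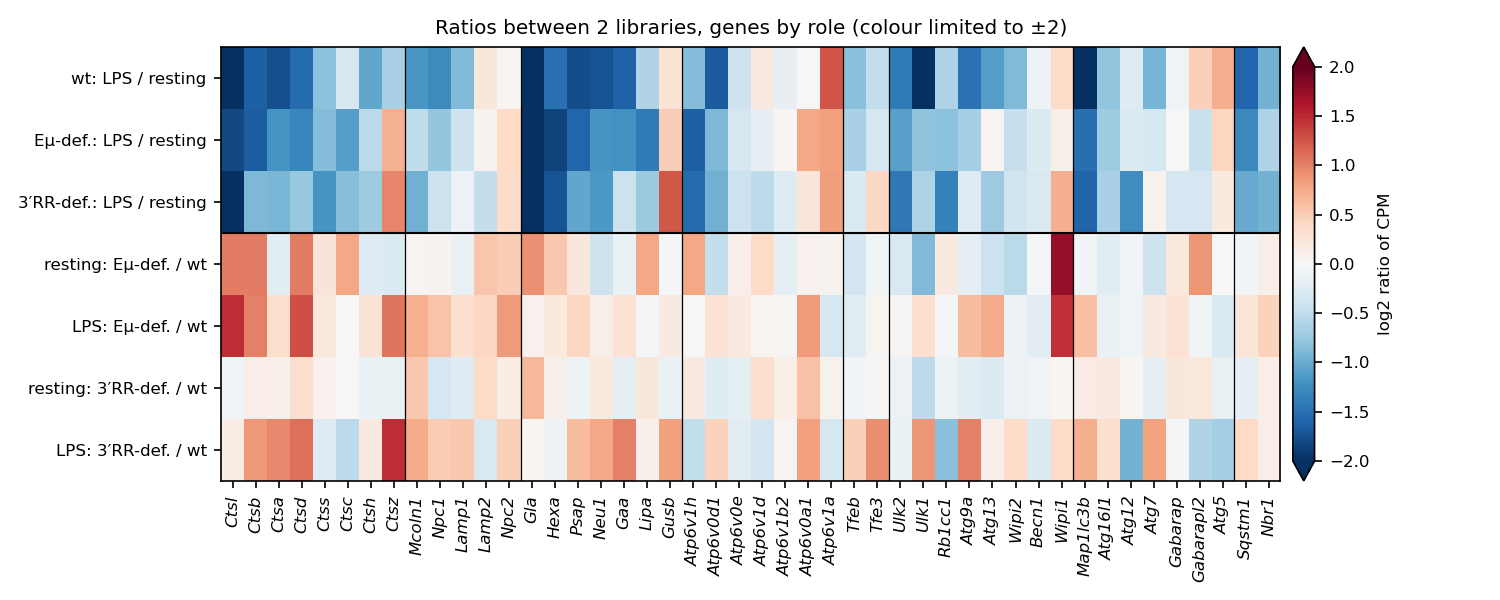
Log2 ratio of CPM between 2 libraries (colour, red higher and blue lower, limited to ±2) for the 46 genes in columns, ordered by role, with 3 rows for LPS-stimulated over resting cells of each genotype and 4 rows for each mutant over wt in each state. The upper rows are mostly blue, with medians from -0.88 to -0.64, and the lower rows are pale, with medians from 0.03 to 0.35.

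Whether the genes differed between genotypes was asked first over both states. By edgeR's quasi-likelihood test with Benjamini-Hochberg adjustment, 0 of 46 members were called in Eμ-deficient against wt cells. Of all genes 0.911% were called higher and 0.253% lower. By the same test, 5 members were at an unadjusted p under 0.05 (8.68% of all genes). The DESeq2 Wald test called 1 member higher, Ctsd (1.9% of all genes higher and 0.432% lower). In 3′RR-deficient against wt cells edgeR called 0 members (0.171% of all genes higher and 0.507% lower), with 2 at an unadjusted p under 0.05 (5.69%). DESeq2 called 0 there (0.399% of all genes higher and 0.869% lower). The genotype coefficients rest on 2 libraries of each genotype, 1 resting and 1 stimulated, which serve as the repeats. Their p-values therefore do not measure the spread between mice of a genotype.

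Ratios between single libraries have no replicate check and are described by size. Over wt, 4 members were higher by 2-fold or more in the resting Eμ-deficient library (12.6% of all genes) and 0 lower (5.62%). After LPS, 5 were higher in the Eμ-deficient library (9.12%) and 0 lower (3.40%). In 3′RR-deficient cells it was 0 higher (5.38%) and 0 lower (3.95%) at rest, and 4 higher (15.9%) and 0 lower (10.7%) after LPS. The 4 were Ctsd, Ctsz, Gaa and Atg9a, and with the GC trend removed 0 were left.

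Ctsb, Ctsd, Ctsl and Wipi1 were higher by 2-fold or more in Eμ-deficient cells in both states, as were 3.73% of all genes. Ctsb had 1783 counts in the resting wt library and 2629 in the Eμ-deficient one, and 660 and 674 after LPS, which gave log2 ratios of CPM of 1.02 (95% counting interval 0.93 to 1.11) and 1.00 (0.84 to 1.16). Ctsd had log2 ratios of 1.04 (0.91 to 1.16) and 1.28 (1.08 to 1.49), and 34.4% of its exon length is covered on the same strand by exons of Gm49369, a gene model that the count table does not name. For Ctsl they were 1.03 (0.72 to 1.34) and 1.47 (0.83 to 2.13), with 36 and 51 counts after LPS. Wipi1 had the widest intervals, with log2 ratios of 1.75 (0.93 to 2.63) and 1.46 (0.71 to 2.23). The genotype coefficients of the 4 were 1.01 ± 0.31, 1.15 ± 0.29, 1.23 ± 0.35 and 1.61 ± 0.48 (SE), with adjusted p of 0.238, 0.139, 0.191 and 0.224 by edgeR's quasi-likelihood test.

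Ctsb, Ctsl and Ctsd are strongly expressed in macrophages, and the macrophage marker sum was also highest in the Eμ-deficient library of each state, at 802 against 240 CPM in wt at rest and at 43.4 against 24.2 CPM after LPS. Ctsl after LPS had 4.78 against 1.72 CPM. Erythroid markers stood at 20380 against 3376 CPM and at 672 against 52.9 CPM, and plasma cell markers at 2234 against 547 CPM and at 1589 against 581 CPM. Their part in these ratios was not tested. With libraries scaled by their total count in place of TMM, 1 of the 4 ratios at rest was past 2-fold.

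In 3′RR-deficient cells no member was past 2-fold in the same direction in both states, against 2.30% of all genes higher and 1.49% lower. Ratios over wt at rest ran from -0.52 (Ulk1) to 0.65 (Gla) on the log2 scale. After LPS they ran from -0.95 (Atg12) to 1.48 (Ctsz), with a median of 0.35 against 0.11 over all genes. With the GC trend removed the median of the members was 0.19, and the ratios of Atg12 and Ctsz were -0.59 and 0.81.

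**Figure D4:**
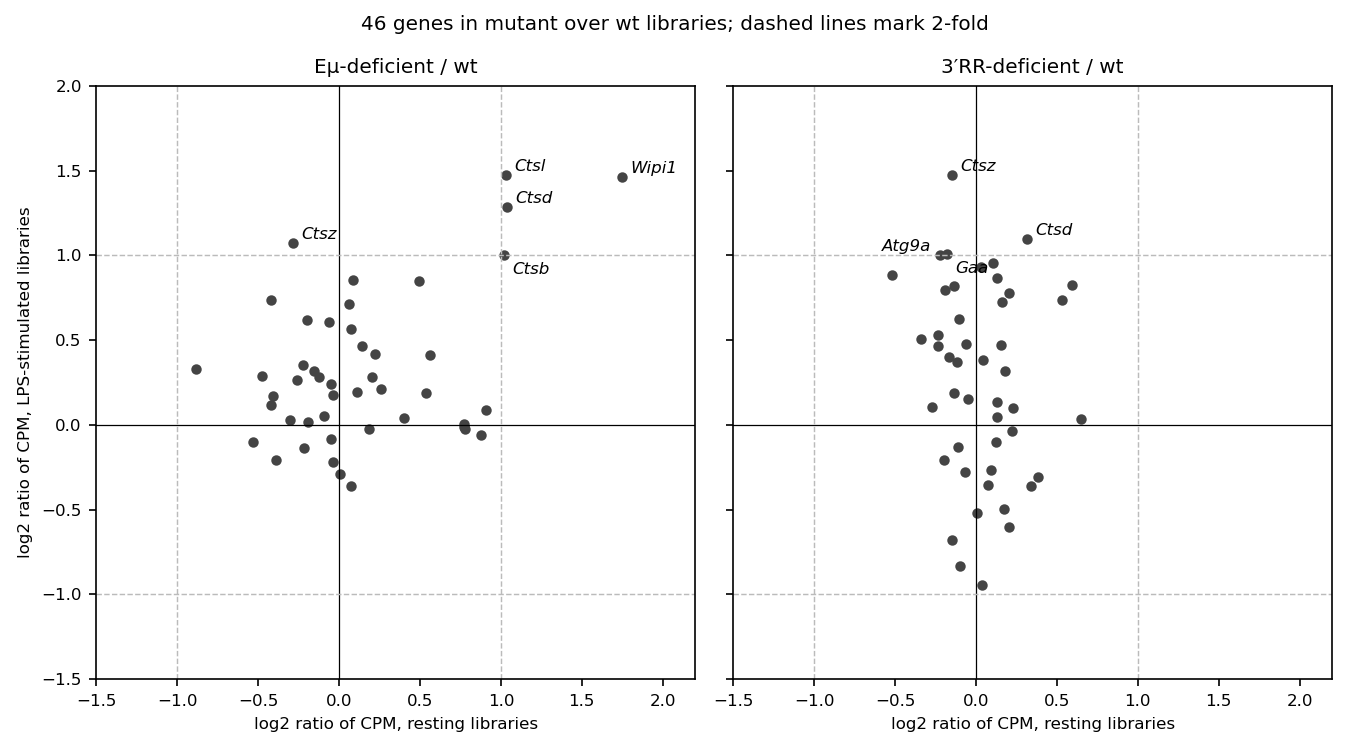
Log2 ratio of CPM of a mutant library over the wt library in resting (horizontal axis) and LPS-stimulated cells (vertical axis), 1 point per gene, for Eμ-deficient (left) and 3′RR-deficient mice (right), with dashed lines at 2-fold. Ctsb, Ctsd, Ctsl and Wipi1 lie at or past 2-fold on both axes on the left, and no gene does on the right, where the spread is larger on the vertical axis.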

How the data were processed

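RNA-seq was done on 6 libraries. The authors removed ribosomal RNA, made stranded total RNA libraries, mapped paired reads to mm10 with STAR 2.4.0a and the Ensembl gene models, and deposited raw counts per gene name made by featureCounts (Subread 1.4.6-p1), with multi-mapping reads counted, so that near-identical gene copies can exchange reads. The deposited counts of 92 spike-in names entered neither library sizes nor tests.

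edgeR 4.0.16 (R 4.3.3) was run on 14600 genes (a minimum of 10 counts in 2 or more libraries) with TMM scaling, genotype and state as additive terms and its quasi-likelihood test. P-values were adjusted by Benjamini-Hochberg over these genes, and called means an adjusted p under 0.05. Errors of fold changes are standard errors over 6 libraries. For ratios between 2 libraries, CPM were compared with exact binomial (Clopper-Pearson) 95% intervals of the counts, which cover counting error only, and a 2-fold size rule. The LPS step was tested on simulated counts of 14216 genes, of which 200 were changed, each alike in every genotype. Of these 200, 25% were called at a 2-fold change and 99% at a 4-fold change. Unchanged genes made up 12.3% and 7.04% of the calls. In the data 21.1% of genes were called lower and 19.7% higher, so the simulated rates do not carry over to them. The genotype coefficients were not simulated. Exon lengths, positions and GC content come from GENCODE M21 (GRCm38), where 44203 gene names were found. On this annotation 120 noncoding genes opposite a coding gene had 4824 counts against 711132 for the coding genes.

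The members and lists were chosen with earlier results of these data known. Values in every library are given for members called, members at the ends of a role group, members whose LPS step had unlike signs, and members past 2-fold over wt in both states. Of the other genes, the largest 5 falls and the 2 rises called are named. The values of Becn1, which is outside this rule, and the 12 genes drawn by library were chosen after their values were seen. Alternatives were other scalings, filters, DESeq2 1.42.0, GC trend removal, fits without the genotype term or to 4 libraries, and leaving out libraries.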

Additional observations from a re-analysis of the deposited data

Results flagged for a closer look

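In 4 genes the effects in different groups were opposite and 2-fold or more apart, and both counting intervals excluded no change. Other pairs of effects were as far apart, but an interval included no change. These were Atg9a in 3′RR-deficient over wt cells (log2 ratio 1.00 after LPS, -0.23 at rest) and Ulk1 in Eμ-deficient over wt cells (0.33 and -0.88). The LPS step of Atg13 (-1.10 in wt, 0.06 in Eμ-deficient cells) was another. With 1 library per genotype and state, none of these differences was tested. Ctsz had a log2 ratio of LPS-stimulated over resting cells of -0.64 in wt, 0.71 in Eμ-deficient and 0.98 in 3′RR-deficient cells, so that the wt step minus the mutant step was -1.35 and -1.62. Read the other way, the Ctsz ratio over wt was 1.07 after LPS and -0.28 at rest in Eμ-deficient cells (difference 1.35), and 1.48 and -0.15 in 3′RR-deficient cells (difference 1.62). Both readings share the same wt libraries, and with the GC trend removed the wt step of Ctsz was -0.03.

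In 3′RR-deficient cells, Gaa had a log2 ratio over wt of 1.01 after LPS and -0.18 at rest (difference 1.19), and Ulk1 one of 0.89 and -0.52 (difference 1.4). With the GC trend removed, the ratios after LPS were 0.26 for Gaa and 0.20 for Ulk1. Atg13 had a log2 ratio of Eμ-deficient over wt of 0.74 after LPS and -0.42 at rest (difference 1.16), and of 0.58 and -0.20 with the GC trend removed.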

How the results depend on the processing

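Of the log2 fold changes of the LPS step, 500 values under the alternatives kept their direction and side of the threshold, 26 lost the call, 17 gained it and 8 changed sign. Leaving out a genotype gave 13 members called lower (without the Eμ-deficient pair, 13.1% of all genes) to 25 (without the wt pair, 23.3%). Called higher were 1 to 4 members (15.0% to 24.7% of all genes), with the 4 found without the wt pair. With no filter on low counts 2 were called higher (11.3% of all genes), and with the GC trend removed 2 (24.6%). Over the genotypes left out, Tfe3 ranged from -0.43 to 0.067, Lamp2 from -0.17 to 0.13 and Gabarapl2 from -0.37 to 0.17. Without the stimulated 3′RR-deficient library Lamp2 was at 0.15, Gabarapl2 at 0.0187 and Atp6v1d at 0.0119. The cause was not tested. None of these 4 genes was called in any of the 12 settings.

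In Eμ-deficient against wt cells, 1 member, Ctsd, was called higher with no filter on low counts (1.67% of all genes). Ctsd was also the 1 called higher by the DESeq2 Wald test (1.9%) and with the GC trend removed (1.11%). Among the 3′RR coefficients, Ctsl was at -0.059 with total counts, at -0.0125 with no filter and at -0.0002786 in the fit to 4 libraries, and Wipi1 was at -0.0383 without the stimulated 3′RR-deficient library. The cause was not tested. Scaling by the total count moved the median log2 ratio of the members to -1.13 for the wt LPS step, to -0.16 for resting Eμ-deficient over wt and to -0.16 for resting 3′RR-deficient over wt, and moved the median LPS fold change of all genes from -0.07 to -0.16.

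The genotype term pairs the resting and the stimulated library of a genotype as a block. Without this block, 23 members were called lower (18.6% of all genes) and 1 higher (18.5%). With 9111974 counts in the smallest library, Wipi1 had 15, so its ratios are the least precise.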

Other observations

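Levels per kilobase of exon put Ctss, Psap and Ctsz ahead of the other members in every library. At rest Psap was highest (159 to 200.2 CPM per kb), followed by Ctss (123 to 147) and Ctsz (73.5 to 89.4). After LPS the order depended on the genotype: Ctss was highest in wt at 69.5 CPM per kb, and Ctsz was highest in Eμ-deficient (120 CPM per kb) and 3′RR-deficient cells (159 CPM per kb).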
